A study of Mus musculus with 2 samples.

Results

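Gata6-type peritoneal macrophages were taken from the omentum of WT and DTR mice as single cells with a UMI of Adgre1 or Csf1r, UMIs of 2 or more of Gata6, Alox15, Prg4 and Saa3, and none of Msln, Upk3b or Col1a2. Of 14414 cells with 200 to 7500 genes detected, 188 met the rule, 35 of 8680 cells in the WT library and 153 of 5734 in the DTR library. The WT group had the wild-type genotype and the DTR group carried a receptor for diphtheria toxin inserted at Postn (Postn-DTR), which places it in cells where the Postn promoter is active. Both groups received diphtheria toxin (DT), and omental cells were taken 5 days later on a C57BL/6 background, with the age of the animals not given in the sources used here. Omenta of several mice were pooled into 1 droplet library per group, so no value below has a replicate and no p value is given. Intervals are 95% intervals and cover counting error only. For the targeted gene, a UMI of Postn was found in 14 of 85 stromal cells of WT mice and 4 of 49 of DTR mice, and in 1 of 35 and 0 of 153 Gata6-type macrophages. Stromal cells had 15370 and 24631 UMIs in the median cell, and counts this small do not measure how many cells were ablated.

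Large macrophages of the serous cavities depend on the transcription factor GATA6, which retinoic acid made by mesothelial and stromal cells induces, and the omentum is one source of that retinoic acid. They are known for Alox15 (12/15-lipoxygenase), Prg4 (lubricin), the coagulation factors F5 and F10 and the adhesion molecule ICAM2, for clearing dead cells through TIM4, and for low MHC class II. Smaller cavity macrophages come from monocytes and carry CCR2 and MHC class II, and macrophages of the omental tissue itself carry LYVE1 and FOLR2.

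Expression is given as a level, the mean over cells of UMIs per 10000 UMIs. A fold or ratio of expression with an interval is taken from summed UMIs, so it can differ from the ratio of levels. Alox15 (chromosome 11, 70344152 to 70352031, minus strand, GRCm38) had no UMI in the macrophages used for comparison. Its UMIs per 10000 ran from 0 through a median of 5.94 to 62.4 in WT Gata6-type macrophages and from 0 through 18.9 to 95.4 in DTR ones. A UMI was present in 28 of 35 and 134 of 153 of them, and in 0 of 161 and 0 of 122 C1q macrophages, which are the cells outside the rule with Adgre1 or Csf1r and 2 or more of C1qa, C1qb and C1qc. A C1q macrophage with 2 or more of the markers would have met the rule and been counted as a member. Low marker values in C1q macrophages thus follow in part from the rule and are no test of it. Prg4 (chromosome 1, 150449412 to 150466165, minus strand) had a median of 13.5 and a maximum of 148 in WT, and a median of 24.3 and a maximum of 270 in DTR. Levels of Prg4 in C1q macrophages were 0.374 and 0.0894. Both genes were detected in 27 of 35 WT members, and 34 of 35 held a UMI of Prg4.

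Saa3 and Gata6 behaved differently as markers. Saa3, an acute phase serum amyloid (chromosome 7, 46711998 to 46715700, minus strand), had a median of 17.5 UMIs per 10000 and a maximum of 363 in WT Gata6-type macrophages, and 138 and 1366 in DTR ones. Its level in C1q macrophages was 0.624 in WT but 25.4 in DTR, where 40 of 122 cells held a UMI. T cells, which should lack the gene, had a UMI of Saa3 in 10 of 3121 WT and 13 of 471 DTR cells, with 4829 and 4448 UMIs in the median cell. Gata6 itself was detected in few members, 6 of 35 and 39 of 153, at levels of 0.207 and 0.402. The gene was not particular to macrophages, since 42 of 85 WT and 19 of 49 DTR stromal cells held a UMI of Gata6. Most members were thus chosen by Alox15, Prg4 and Saa3 rather than by Gata6.

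**Figure D1:**
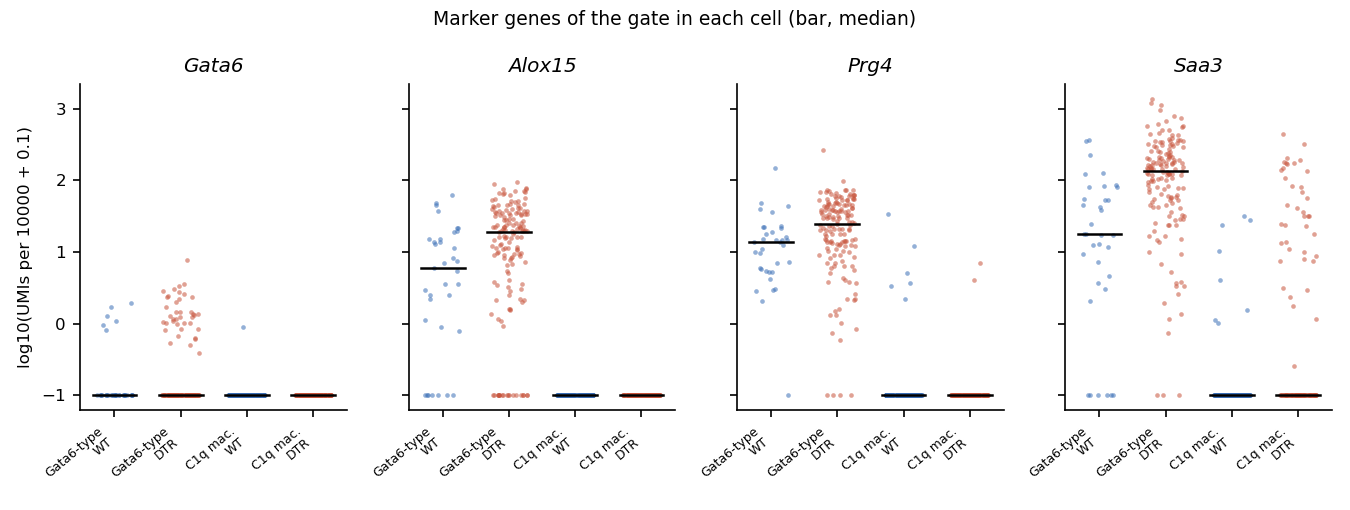
Points are single cells of Gata6-type and C1q macrophages from the WT and DTR libraries (x axis), placed by log10 of UMIs per 10000 plus 0.1 (y axis) for the markers Gata6, Alox15, Prg4 and Saa3, with bars at the medians. Alox15 was at 0 in every C1q macrophage, while Saa3 was present in 40 of 122 DTR C1q macrophages.

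Members were not all equally deep inside the rule. In WT, 14 carried exactly 2 markers, 15 carried 3 and 6 carried 4, against 25, 90 and 38 in DTR. Just inside the threshold, the 14 WT and 25 DTR cells with exactly 2 markers had Fn1 levels of 43.9 and 29.8 and Icam2 levels of 3.61 and 1.12. Just outside it, the 29 WT and 131 DTR cells with 1 marker and no Msln, Upk3b or Col1a2 had Fn1 levels of 12.04 and 12.9 and Icam2 levels of 1.17 and 0.124. For 19 and 122 of these the marker was Saa3. Slpi was at 1.28 and 22.6 just inside, and at 2.32 and 6.62 just outside. Msln, Upk3b or Col1a2 removed 2 WT and 4 DTR cells, and 1 WT and 44 DTR cells had 2 or more markers without Adgre1 or Csf1r.

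Cells of the rule made up 0.403% (0.281 to 0.560) of WT cells and 2.67% (2.27 to 3.12) of DTR cells, a ratio of shares of 6.62 (4.59 to 9.54). Among the 766 WT and 671 DTR cells with Adgre1 or Csf1r they made up 4.57% and 22.8%, a ratio of 4.99 (3.51 to 7.10). C1q macrophages made up 1.85% and 2.13%, a ratio of 1.15 (0.909 to 1.45). The denominators changed between the libraries, since T cells were 35.96% of WT and 8.21% of DTR cells and plasma cells 6.85% and 35.3%. Outside the plasma cell and neutrophil gates the ratio was 11.4, and it was 7.34 when Saa3 was not counted as a marker. A share does not give a number of cells per omentum, and with 1 pooled library per group the size of the difference cannot be set against the spread between animals.

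Depth and other lineages were uneven as well. The kept cells of the libraries held 80175472 and 81027307 UMIs. Median UMIs per cell were 9862 in WT and 7541 in DTR members, and 7827 and 3316 in C1q macrophages. All 35 WT and 146 of 153 DTR members also had 2 or more C1q genes. Of cells that passed the rule, 8 of 35 and 86 of 153 carried 2 or more markers of a lineage other than macrophages and monocytes. Plasma cell markers were found as 2 or more in 6 WT and 76 DTR cells and B cell markers in 4 and 29. Neutrophil markers were so found in 0 and 15 and T cell markers in 3 and 1, and a cell could count for several lineages. Monocyte markers, counted apart because the lineages overlap, were found as 2 or more in 2 and 72. The summed neutrophil markers had a mean of 0.239 and a maximum of 2.40 in WT and a mean of 32.5, a median of 0 and a maximum of 1225 in DTR. Of the mesothelial markers, 0 of 9 were detected in WT and 3 of 9 in DTR members, with a summed level of at most 4.09 in any cell, but the rule itself sets Msln and Upk3b of that list to 0. Red cell and platelet markers were at 0 in all members. The doublet caller marked 0 WT and 3 DTR members, and none of the 65 barcodes that occur in both libraries was a member. C1q macrophages were not free of other lineages either. With doublet calls and cells with markers of another lineage removed, 87 of 161 WT and 81 of 122 DTR C1q macrophages were left. Plasma cell markers were found as 2 or more in 55 WT and 35 DTR C1q macrophages, and monocyte markers in 37 and 22.

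Which genes set Gata6-type macrophages apart from the C1q macrophages of the same library was asked first. Differences are log2 ratios of levels after adding 0.05, and a gene is called when it passed 2-fold in the same direction in both libraries. Of 3784 genes with 50 UMIs or more in each library's comparison, 57 were higher (1.51%) and 82 lower (2.17%). In single libraries the shares were 3.44% higher and 8.86% lower in WT, and 5.23% higher and 8.25% lower in DTR. Of the 22 genes known for cavity macrophages 18 could be compared, and 13 were higher and 0 lower, with a median log2 difference of 3.07 in WT and 2.88 in DTR against −0.08 and −0.12 over all genes. The medians did not move when genes at 0 in C1q macrophages were set to their bounds.

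Of these genes, Slpi, Fn1, Ltbp1, Serpinb2 and Thbs1 encode secreted or matrix proteins or protease inhibitors. Slpi, the secretory leukocyte protease inhibitor, had a median of 1.44 and a maximum of 299 UMIs per 10000 in WT Gata6-type macrophages, and a median of 29.3 and a maximum of 900 in DTR ones. Levels were 27.8 and 78.6, against 0.0415 and 0.628 in C1q macrophages, so its summed UMIs were 659.7-fold (334 to 1532) and 71.7-fold (57.0 to 91.6) higher. Fn1, fibronectin, was present in every WT member, from 18.4 through a median of 44.1 to 163, and in DTR members the median was 48.9. Its level was 55.5 and 58.6 in Gata6-type against 9.42 and 8.22 in C1q macrophages, a ratio that differed little between libraries at 6.10 (5.69 to 6.53) and 6.72 (6.15 to 7.35). Ltbp1, which holds latent TGF-beta in the matrix, had no UMI in either set of C1q macrophages and a level of 1.997 and 1.19 in members, at least 108-fold and 25.04-fold higher. Serpinb2, an inhibitor of plasminogen activators, was at 2.91 and 5.70 against 0.0470 and 0.0725. Thbs1, thrombospondin, was at 22.6 and 31.1 against 2.73 and 12.8.

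Icam2, Selp, Itga6, Timd4 and Cd9, which encode surface proteins, were also among the 13. Icam2 was at 4.52 and 2.99 in Gata6-type against 0.417 and 0.102 in C1q macrophages, 13.1-fold (9.58 to 18.1) and 19.2-fold (10.3 to 40.3) by summed UMIs. Selp, the adhesion receptor P-selectin, was at 1.73 and 1.41, against 0 in WT C1q macrophages (at least 93.4-fold) and 0.0703 in DTR ones. Itga6, an integrin chain that binds laminin, was at 3.87 and 3.76 against 0.0793 and 0.378. Timd4, which encodes the phosphatidylserine receptor TIM4, was higher too, at 2.42 and 0.882 against 0.334 and 0.0871, but it was found in only 13 of 35 and 39 of 153 members. T cells had no Timd4 UMI in 3121 WT and 471 DTR cells. Cd9, a tetraspanin, was at 2.12 and 4.38 against 0.209 and 0.531.

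**Figure D2:**
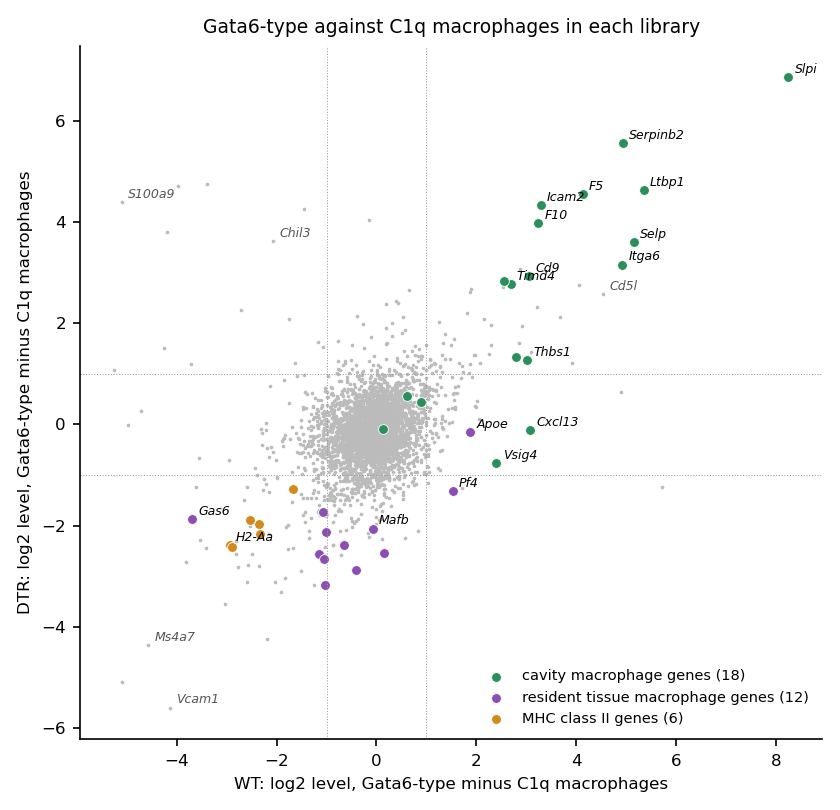
Each point is 1 of 3784 genes, with the log2 difference of levels between Gata6-type and C1q macrophages in WT on the x axis and in DTR on the y axis, dotted lines at 2-fold, and 3 gene lists in colour. The cavity genes lie at the upper right (13 of 18 past 2-fold in both), the 6 MHC class II genes at the lower left, and S100a9 and Chil3 at the upper left, with opposite signs.

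The coagulation genes were split by gene. Of 6 compared, 3 were higher and 1 lower. F5 was at 3.13 and 3.60 in Gata6-type against 0.132 and 0.105 in C1q macrophages, and F10 at 1.83 and 6.43 against 0.149 and 0.360. F13a1, the transglutaminase chain of factor XIII, ran the other way at 2.62 and 2.66 against 5.56 and 8.99. Serpinb2, given above, was the remaining gene of the 3. F5 and F10 were thus higher in Gata6-type and F13a1 in C1q macrophages.

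Complement and acute phase genes gave 2 of 9 higher, Slpi and C4b. C4b, a chain of complement component C4, had a median of 9.86 and a maximum of 62.4 in WT members and a median of 10.8 and a maximum of 163 in DTR ones. Its level of 13.4 and 14.9 compared with 1.39 and 2.97 in C1q macrophages. C1qa, by which the comparison cells were chosen, had a level of 38.3 and 12.5 in members against 28.9 and 27.98. Of the genes for clearing dead cells, 3 of 10 were higher (Timd4, Pros1 and Marco) and 2 lower (Axl and Gas6). Pros1, protein S, was at 1.65 and 1.42 against 0.566 and 0.549, and the scavenger receptor Marco was at 4.79 and 3.15 against 0.272 and 1.33. Gas6, the ligand of the receptor AXL, was at 0.0227 and 0.299 against 0.892 and 1.23, and Axl at 0.805 and 0.295 against 1.70 and 1.79. After thinning to 2000 UMIs, Pros1 and Marco were at 0.84 and 0.30 on the log2 scale in DTR and Axl at −0.35 in WT, none past 2-fold. Protein S and GAS6, which both bridge dying cells to receptors of the AXL family, thus had opposite directions.

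Eicosanoid genes other than the rule's Alox15 showed 1 of 8 called, Ptgs1 (cyclooxygenase 1), at 2.69 and 2.12 against 1.06 and 1.01. Ptgis, prostacyclin synthase, reached the minimum of UMIs only in DTR, with levels of 1.21 and 1.04 in members against 0.0534 and 0.0111. For chemokines, 3 of 14 were higher and 3 lower. Cxcl1, a neutrophil attractant, was at 3.48 and 2.42 against 0.437 and 0.762, Cxcl2, also one, at 31.8 and 26.1 against 14.1 and 11.4, and the eosinophil attractant Ccl24 at 11.5 and 9.47 against 2.38 and 3.58. Ccl4 and Ccl8 were lower, Ccl4 at 0.906 and 2.42 against 2.26 and 6.29. Of 9 lipid genes only the fatty acid binding protein Fabp4 passed, at 2.26 and 2.81 against 0.424 and 0.910. No gene was called in either direction of 6 glucocorticoid target genes, 4 cell cycle genes, 1 interferon-stimulated gene and 5 retinoid genes that could be compared.

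Among the 12 genes outside the lists that were furthest above C1q macrophages were Cd5l, Prtn3, Fabp7, Lrg1 and Apoc2. Cd5l, a secreted scavenger receptor family protein of tissue macrophages, was at 3.64 and 6.18 against 0.109 and 0.998. Prtn3, proteinase 3, which is best known from neutrophil granules, was at 2.01 and 12.3 against 0.304 and 1.84. Fabp7, a fatty acid binding protein, was at 1.65 and 1.45 against 0.0531 and 0.174.

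MHC class II genes were lower as a group, 6 of 6 compared, with medians of −2.45 in WT and −2.07 in DTR. H2-Aa had a median of 1.61 and a maximum of 86.7 in WT Gata6-type macrophages against a median of 77.6 and a maximum of 240 in WT C1q macrophages. In DTR the medians were 0 and 7.85. The 2 kinds of macrophage overlapped for single cells, and their levels were 10.7 and 5.16 against 82.7 and 27.2. Cd74, the invariant chain, was at 41.9 and 15.9 against 214 and 62.9.

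Genes of resident tissue macrophages were lower in 6 of 12, with medians of −0.83 in WT and −2.25 in DTR. Mrc1, the mannose receptor, was at 1.29 and 1.04 in Gata6-type against 2.94 and 6.402 in C1q macrophages, and Maf at 1.69 and 0.858 against 3.44 and 3.90. In WT, summed UMIs gave log2 differences within 2-fold for 4 of the 6, at −0.76 for Mrc1, −0.37 for Maf, −0.51 for F13a1 and −0.59 for Cbr2. Genes of small cavity macrophages and monocytes were lower in 3 of 7, including Ccr2 at 0.370 and 0.635 against 5.06 and 1.56, and genes of alternative activation in 3 of 6. Retnla was in both lists, and had a level of 26.9 and 0.896 against 123 and 17.9. Outside the lists, Ms4a7 and Vcam1 were among the 12 genes furthest below C1q macrophages. Ms4a7, a membrane protein of macrophages, had no UMI in WT members, at least 12.5-fold lower than the 1.14 of C1q macrophages, and was at 0.0195 against 1.37 in DTR. Vcam1, the adhesion molecule, had none in WT members either, at least 9.08-fold lower, and was at 0.0301 against 3.81 in DTR. Cd63 was at 0.209 and 0.922 against 1.76 and 5.71.

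Cyp26a1, the enzyme that degrades retinoic acid and is a classical retinoic acid target, was rare, and nearly absent from other classes of cells (chromosome 19, 37697798 to 37701536, plus strand, GRCm38). It had 7 UMIs in 3 of 35 WT members and 79 UMIs in 38 of 153 DTR members, levels of 0.209 and 0.711 with a highest cell of 15.9. C1q macrophages had 0 UMIs in 161 and in 122 cells, so members were at least 11.3-fold and 14.9-fold higher. At 2000 UMIs per cell, 1 of 34 WT and 15 of 144 DTR members (10.4%, 5.95 to 16.6) kept a UMI, against 0 of 153 and 0 of 89 C1q macrophages and 0 of 3041 and 0 of 449 T cells. The plasma cells had none in either library, and stromal cells 1 cell in each. Ratio of summed UMIs between DTR and WT members was 2.93 (1.36 to 7.53), on 7 UMIs in WT.

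Of other retinoid genes, Rarb, a retinoic acid receptor that is itself a target, was found in 3 of 35 and 22 of 153 members at levels of 0.0812 and 0.264, against 0.0918 and 0.0311 in C1q macrophages. Dhrs3, a reductase that returns retinal to retinol, had a level of 4.57 in WT and 1.40 in DTR members, 3.02-fold (2.38 to 3.83) lower by summed UMIs, while C1q macrophages had 2.34 and 2.82. Tgm2, transglutaminase 2, was at 0.404 and 1.19 in members and at 0.363 and 1.28 in C1q macrophages. By summed UMIs it was 1.66-fold (1.005 to 2.90) higher in DTR members, not past 2-fold. Aldh1a2, which makes retinoic acid, was at 0.204 and 0.0207, 8 and 3 UMIs. Of the 7 retinoid genes compared between DTR and WT members, 2 were higher (Cyp26a1 and Tgm2) and 1 lower (Dhrs3).

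**Figure D3:**
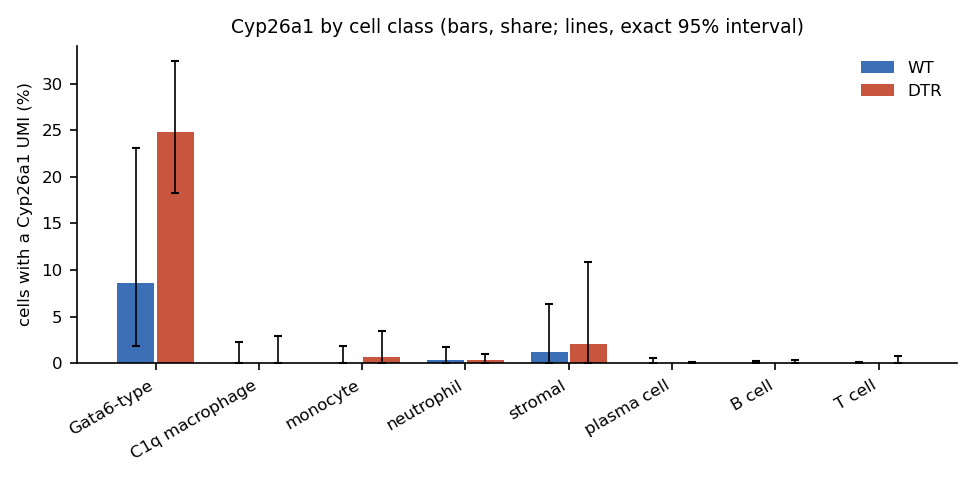
Bars give the percentage of cells with a Cyp26a1 UMI (y axis, not thinned) in each class of cells (x axis) of the WT and DTR libraries, and lines the exact 95% binomial interval. Gata6-type macrophages reached 8.57% in WT and 24.8% in DTR, and C1q macrophages were at 0 in both.

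The promoters of Cyp26a1 and Rarb are shown because retinoic acid receptors bind a direct repeat with 5 bases between its arms, and these were the only genes of the retinoid list that held one. The search took AGGTCA, its 1-base variants AGTTCA and GGGTCA, or the variant GGTTCA for either arm, on both strands, in the 250 bases before each RefSeq transcript start (GRCm38.p6). Such a repeat was present in 29 of 32851 windows (0.0883%), from 28 of 27025 genes, and in 2 of 13 retinoid genes in the table. In Cyp26a1 (chr19:37697558-37697807, plus strand) it lies 32 to 16 bases before the start and reads on the opposite strand, and in Rarb (chr14:16575477-16575726, minus strand) it lies 53 to 37 bases before the start on the gene strand. The arms are in capitals.
Cyp26a1: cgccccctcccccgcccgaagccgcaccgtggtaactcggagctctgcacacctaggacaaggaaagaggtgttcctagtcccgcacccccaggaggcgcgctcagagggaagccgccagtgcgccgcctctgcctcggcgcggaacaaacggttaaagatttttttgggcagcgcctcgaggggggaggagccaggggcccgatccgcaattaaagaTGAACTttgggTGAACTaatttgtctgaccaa
Rarb: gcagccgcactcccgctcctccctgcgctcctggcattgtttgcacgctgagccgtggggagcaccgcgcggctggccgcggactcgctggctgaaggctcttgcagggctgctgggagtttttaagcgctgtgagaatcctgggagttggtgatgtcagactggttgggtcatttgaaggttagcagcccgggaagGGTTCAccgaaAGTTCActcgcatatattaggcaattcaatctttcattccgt
Both genes hold the repeat. Cyp26a1 had no UMI in C1q macrophages, while Rarb was at 0.0918 in WT and 0.0311 in DTR ones. The DTR value lies below the level of 0.0476 that a count of 0 allows there, so in DTR the genes cannot be told apart. A match of letters describes the window and not the binding of a receptor.

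DTR and WT members were compared next, which asks how these macrophages differed 5 days after DT. Of 3501 genes with 50 UMIs or more in members, 211 were higher in DTR past 2-fold (6.03%) and 188 lower (5.37%). The median log2 difference over all these genes was −0.11, and TMM scaling of summed UMIs put the shift at −0.32, under which 321 were higher and 86 lower. Log2 differences below are as computed, so that a value relative to the median gene is 0.11 higher. In C1q macrophages 198 of 5061 genes were higher in DTR (3.91%) and 337 lower (6.66%). The cavity genes differed in both directions, with 3 of 21 higher (Slpi, F10 and Cd9), 4 lower (Cxcl13, Vsig4, Timd4 and Padi4) and a median of 0.20. Slpi, Cd9 and Padi4 were no longer past 2-fold where 3 or more markers were required, at 0.98, 0.53 and −0.95, nor was Padi4 on TMM scaling, at −0.70. Fn1, Icam2, Itga6 and Selp stayed within 2-fold between the libraries.

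**Figure D4:**
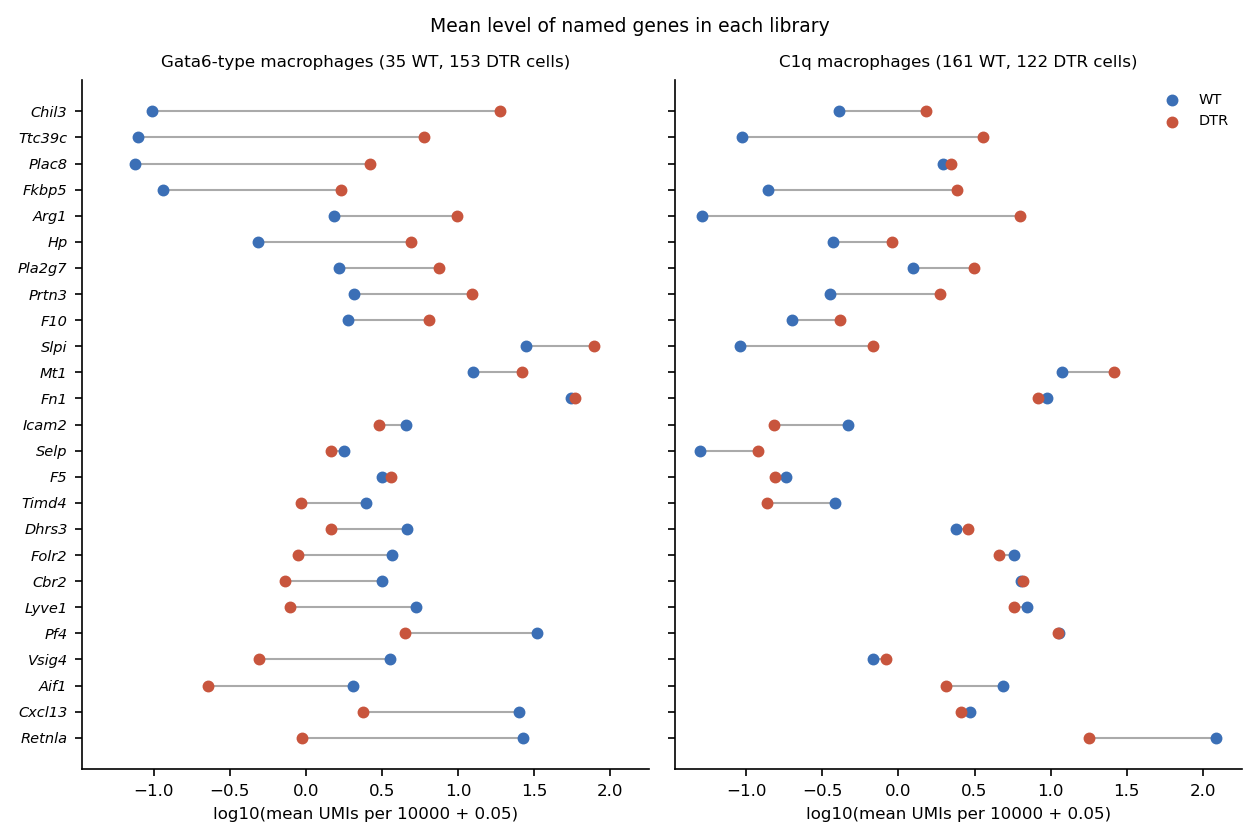
Points give log10 of the mean level plus 0.05 (x axis, UMIs per 10000) of named genes in WT and DTR, in Gata6-type macrophages (left) and C1q macrophages (right). Chil3 and Plac8 were higher in DTR by more in Gata6-type macrophages, Ttc39c and Fkbp5 were higher in both, and Cxcl13, Pf4 and Vsig4 were lower in DTR by 5.34-fold or more in summed UMIs of Gata6-type macrophages.

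Among genes of monocytes and of alternative activation, Chil3, Plac8 and Arg1 were higher in DTR members. Chil3 (chitinase-like 3, also Ym1; chromosome 3, 106147554 to 106167564, minus strand) had 2 UMIs in 2 of 35 WT members, and in DTR members a median of 1.73 and a maximum of 152 UMIs per 10000 with a UMI in 85 of 153. Levels were 0.0474 and 18.8, a ratio of summed UMIs of 364 (101 to 3011). At 2000 UMIs per cell, a Chil3 UMI was kept by 0 of 34 WT members, which allows a share of up to 8.82%, and by 71 of 144 DTR members (49.3%), against 7 of 89 DTR C1q macrophages (7.87%) and 7 of 449 DTR T cells (1.56%). Plac8, a small cysteine-rich protein of myeloid cells, had 1 UMI in WT and a level of 2.58 in DTR members. Arg1, arginase 1, had a level of 1.48 and 9.74 and a UMI in 10 of 35 and 132 of 153 members, 5.11-fold (3.89 to 6.83) by summed UMIs. T cells had a UMI of Arg1 in 45 of 3121 and 8 of 471 cells. The small cavity and monocyte list had 4 of 7 higher and 1 lower, and the alternative activation list 2 of 5 higher and 1 lower. The lower gene of both was Retnla, and Clec10a, another of the 4, was at 0.456 and 1.59.

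Retnla (resistin-like alpha) and Chil3, often read together as marks of alternative activation, thus differed in opposite directions. Retnla had a maximum of 384 UMIs per 10000 and a level of 26.9 in WT, and a maximum of 34.96 and a level of 0.896 in DTR members, 35.1-fold (29.2 to 42.6) lower by summed UMIs. A single WT cell held 725 of the 1140 Retnla UMIs. The log2 difference of levels was −4.83, −4.49 without the top cell of each group, and −2.68 where 3 or more markers were required.

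Acute phase and secreted genes were higher in 4 of 10, Slpi, Lcn2, Hp and Lbp, and lower in 1, Lyz1. Hp, the hemoglobin-binding haptoglobin, was at 0.437 and 4.89, 13.1-fold (7.74 to 24.03) higher by summed UMIs. Lbp, which binds lipopolysaccharide, was at 0.436 and 1.961. Slpi was 2.55-fold (2.39 to 2.72) higher, and Saa3, which the rule used, had levels of 56.5 and 197. Lyz1, a lysozyme of mouse tissues that is near-identical to Lyz2, so that reads may be split between the pair, was at 10.8 and 1.49. C4b stayed within 2-fold at 13.4 and 14.9. In C1q macrophages 4 of 9 genes of this list were higher in DTR and 2 lower. Slpi was at 0.0415 and 0.628 there, Hp at 0.320 and 0.857 and Saa3 at 0.624 and 25.4. Lcn2 was lower in DTR C1q macrophages, at 0.482 and 0.149, but the WT level depended in part on its top cell, as given below. Higher levels of Slpi, Hp and Saa3 in DTR were thus not particular to Gata6-type macrophages.

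Of the coagulation genes, F10 was 3.16-fold (2.44 to 4.15) higher by summed UMIs. For eicosanoids, 1 of 9 was higher, Pla2g7, the hydrolase of platelet-activating factor, at 1.59 and 7.51 or 4.51-fold (3.43 to 6.03), and 1 lower. Of 9 lipid genes 1 was higher and 0 lower, while in C1q macrophages 5 of 10 were higher and 1 lower. Spp1, osteopontin, had no UMI in WT members and a level of 1.76 in DTR ones, at least 19.3-fold higher. Its 209 UMIs in DTR lay in 23 of 153 members. Prtn3 was 4.87-fold (3.91 to 6.14) higher by summed UMIs. In C1q macrophages its levels were 0.304 and 1.84, a log2 difference of 2.42 against 2.58 in members. By summed UMIs the log2 interval was 0.55 to 1.39 in C1q macrophages, below the 1.97 to 2.62 in members. F10 and Pla2g7 were also higher in DTR C1q macrophages, 2.40-fold (1.40 to 4.12) and 2.57-fold (2.14 to 3.09). Spp1 was low in C1q macrophages of both libraries, at 0.0223 and 0.0633. Gpx3, the secreted glutathione peroxidase, had 1 UMI in WT members and was at 0.0153 and 1.23, a ratio of summed UMIs of 41.1 (7.26 to 1632), and it was at 0.0439 and 1.08 in C1q macrophages.

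Several neutrophil granule genes were also called higher, and these rested on few cells. S100a9 had a level of 0.0791 in WT and 17.6 in DTR members, but a DTR median of 0, with a UMI in 25 of 153 cells and a maximum of 818. Its log2 difference was 7.09 in all members and 1.61 without the 1 WT and 14 DTR members that fell in the plasma cell or neutrophil gates. The neutrophil gate is itself set on S100a8 and S100a9, at 300 UMIs per 10000 or more of the pair. The same removal took S100a8 from 5.62 to 2.52, Camp from 5.16 to 0.63 and Lcn2 from 4.28 to 2.56. Chil3 moved from 7.60 to 7.58. Wfdc21 and Cd177 had no UMI in WT members, so DTR members were at least 9.14-fold and 5.39-fold higher. Summed neutrophil markers moved with this group, as given above, and their part in the remaining difference was not tested.

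Some of the difference was shared with C1q macrophages of the same libraries, and levels of both are given side by side. Ttc39c, which encodes a protein with tetratricopeptide repeats, had 1 UMI in 35 WT members and a median of 3.62 and a maximum of 54.9 in DTR members, where 122 of 153 cells held it. Its level was 0.0286 and 5.94 in members and 0.0432 and 3.56 in C1q macrophages. Its summed UMIs were 153-fold (27.3 to 6046) and 50.7-fold (23.9 to 128) higher in DTR. Thinned to 2000 UMIs, 0 of 34 WT and 69 of 144 DTR members (47.9%) held a UMI, and T cells held one in 3.65% and 4.90%. Fkbp5, a glucocorticoid target that binds the steroid receptor complex, was at 0.0653 and 1.64 in members and at 0.0879 and 2.37 in C1q macrophages. By summed UMIs it was 9.72-fold (4.09 to 30.3) and 18.8-fold higher in DTR. T cells thinned in the same way had a Fkbp5 UMI in 5.06% and 16.3%, so the gene was higher in DTR outside macrophages too. The metallothionein Mt1 was at 12.5 and 26.3 in members and at 11.8 and 26.1 in C1q macrophages. Of 8 glucocorticoid target genes, 3 were higher in members (Fkbp5, Mt1 and Mt2) with a median of 0.55, and 4 in C1q macrophages. Cell cycle genes had 0 of 6 higher and 1 lower, and 3 or more of 8 cell cycle genes were found in 2 of 34 WT and 4 of 144 DTR members at equal depth. No interferon-stimulated gene of the list reached 50 UMIs in members.

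Cxcl13, Pf4, Vsig4 and Timd4 were lower in DTR members. Cxcl13, the B cell attractant of milky spots and cavity macrophages, had a median of 6.88 and a maximum of 228 UMIs per 10000 in WT and a median of 0 and a maximum of 62.8 in DTR members. Levels were 25.1 and 2.32, or 10.8-fold lower, while C1q macrophages had 2.92 and 2.52. Summed UMIs of Cxcl13 were 16.2-fold (13.7 to 19.4) lower, and the folds that follow are also of summed UMIs. Pf4, platelet factor 4, which macrophages also make, was at 32.9 and 4.46, 10.9-fold (9.71 to 12.4) lower, against 11.4 and 11.1 in C1q macrophages, and no member held a UMI of the platelet markers. Vsig4, a complement receptor, was at 3.54 and 0.443 and Timd4 at 2.42 and 0.882, 5.34-fold (3.72 to 7.73) and 3.21-fold (2.38 to 4.32) lower. With chemokines taken as a list, 2 of 12 were higher (Ccl4 and Cxcl10) and 2 lower (Cxcl13 and Pf4). Cxcl10 rested on few UMIs, at 0.0704 and 0.385, and had the other sign (−0.26) where 3 or more markers were required.

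Resident tissue macrophage genes were lower in 4 of 10 (Folr2, Lyve1, Cbr2 and Pf4), with a median of −0.78. Lyve1, the hyaluronan receptor, was at 5.26 and 0.734, 6.17-fold (4.46 to 8.59) lower, and Folr2, a folate receptor, at 3.61 and 0.832, 4.32-fold (3.12 to 5.99) lower. C1q macrophages had 6.99 and 5.71 for Lyve1 and 5.71 and 4.55 for Folr2. Aif1, an actin-binding protein of macrophages, was at 1.99 and 0.176 in members. Of other genes outside the lists, Ifi27l2a, an interferon-inducible gene, was at 12.9 and 3.24, Igfbp4, which binds insulin-like growth factors, at 2.62 and 0.582, and the growth factor Bmp2 at 1.13 and 0.233. For clearance of dead cells, 0 of 9 genes were higher and 2 lower, Timd4 and Axl. Axl was at −0.51 where 3 or more markers were required and at 0.89 in members without Folr2. MHC class II genes were lower in 4 of 6 with a median of −1.22, and in 7 of 7 in C1q macrophages. On TMM scaling the log2 difference was −0.66 for H2-Aa and −0.64 for Cd74, neither past 2-fold, and −1.13 for H2-Ab1 and −1.03 for H2-Eb1. With 3 or more markers required, it was 0.019 for H2-Aa and 0.072 for H2-Eb1. It was larger once doublet calls and cells with markers of another lineage were removed, at −1.95 for H2-Aa, −2.18 for H2-Ab1, −1.98 for H2-Eb1 and −2.55 for Cd74.

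Members differed among themselves along these same genes. A split by Folr2, chosen after values were seen, set 20 WT and 24 DTR members with a UMI against 15 and 129 without, at median depths of 8685 and 10313 UMIs in WT and 7315 and 7583 in DTR. In WT, members without Folr2 had F5 at 6.31 against 0.750 and Ltbp1 at 4.66 against 0. Members with Folr2 had Mrc1 at 2.01 against 0.335, Retnla at 44.1 against 3.90 and H2-Aa at 16.9 against 2.54. These 20 WT cells had Lyve1 at 8.28, and 2 of them held a UMI of Gata6, so the name Gata6-type is less sure for them. Their Fn1 and Icam2 levels of 43.5 and 3.79 were still above the 9.42 and 0.417 of WT C1q macrophages. Not all genes of a list followed the split, since the cavity genes Cxcl13 and Timd4 were at 11.6 and 1.94 without against 35.2 and 2.78 with Folr2, and the tissue macrophage gene Pf4 was at 40.3 without against 27.3 with it.

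**Figure D5:**
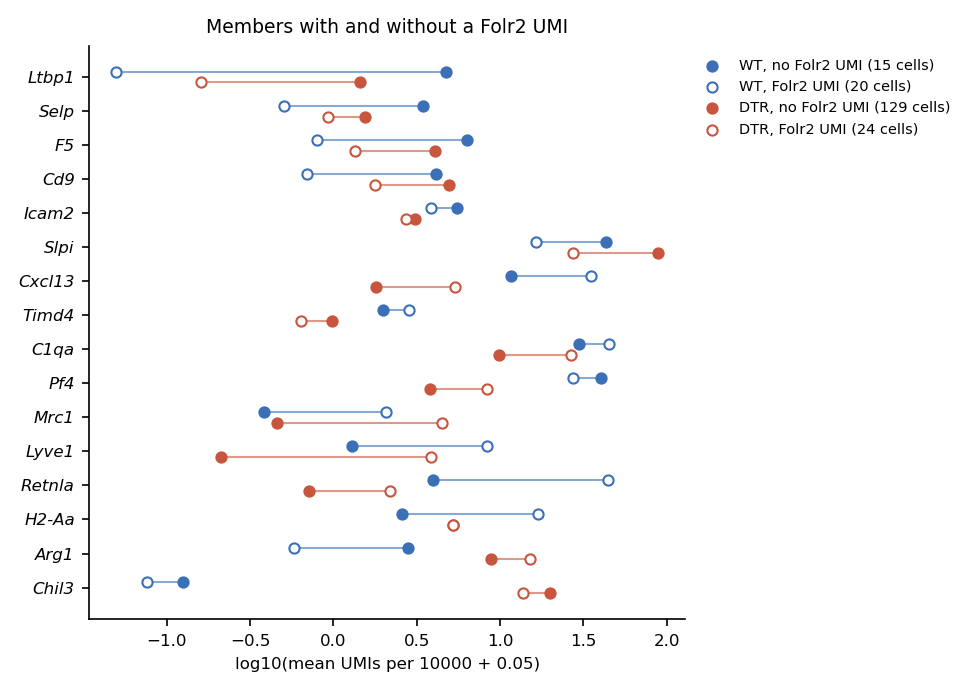
Points give log10 of the mean level plus 0.05 (x axis, UMIs per 10000) in Gata6-type macrophages with (open) and without (filled) a Folr2 UMI, in WT (20 and 15 cells) and DTR (24 and 129 cells). Ltbp1 and F5 were higher without Folr2 and Mrc1 and Lyve1 higher with it in both libraries, whereas H2-Aa was at 16.9 with and 2.54 without Folr2 in WT and at 5.15 and 5.17 in DTR.

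In DTR members Ltbp1 was at 1.39 without and 0.110 with Folr2, F5 at 4.02 and 1.30, and Cxcl13 at 1.76 and 5.34, each in the same order as in WT. C1qa was at 9.84 without and 26.7 with Folr2. H2-Aa was nearly equal in DTR, at 5.17 without and 5.15 with Folr2. At 2000 UMIs per cell, Folr2 was held by 38.2% of WT and 9.03% of DTR members, and by 35.95% and 39.3% of C1q macrophages. The make-up of the compared cells by Folr2 thus differed between the libraries. Among members without Folr2 alone, the DTR minus WT log2 difference of MHC class II genes had the other sign, at 1.01 for H2-Aa, 0.73 for H2-Ab1, 0.94 for H2-Eb1 and 0.10 for Cd74. Fewer cells of one kind and a lower level in each cell cannot be told apart for genes that follow this split.

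DTR members were also split by Chil3. Those with a Chil3 UMI, 85 cells, had a Slpi level of 121 and the 68 without had 26.2, while Folr2 was at 0.313 and 1.48, Lyve1 at 0.220 and 1.38, and F5 at 4.18 and 2.87. This split too was made on a gene whose values were known, and it describes the cells without a test.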

How the data were processed

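Omental cells of WT and DTR mice were profiled by droplet single-cell RNA sequencing, 1 pooled library per group. The sources differ on the kit (5′ in the labels, 3′ in the methods) and on the Cell Ranger version, which is 6.0.0 in the submitters' processing notes, with the mm10 build. The deposited matrices hold natural log values of 1 plus UMIs per 10000, made by the authors, not the counts the design had assumed. UMIs were recovered as whole multiples of the value that 1 UMI has in each cell, and 99.956% of WT and 99.897% of DTR values came out whole within 0.1.

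Cells with 200 to 7500 genes were kept. Gene symbols missing from the files were taken from GENCODE M21. Levels, log2 ratios (pseudocount 0.05, minimum of 50 UMIs over the groups compared), exact Poisson, Clopper-Pearson and conditional binomial intervals (95%) were computed in Python 3.11.15 with numpy 2.4.6, scipy 1.17.1 and pandas 2.3.3, and doublets were called with Scrublet in scanpy 1.11.5 but kept in the results as given. Cells with fewer than 2000 UMIs were left out of thinned shares, 1 of 35 WT and 9 of 153 DTR members. A count of 0 was bounded at 3 counts over the group. Scripts were tested on simulated data. With 1 library per group there are no replicates and no test was run.

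The members, the 15 gene lists and the comparisons were chosen with earlier results of these data known. Named genes were the list genes and the top of rankings made outside the lists. The rankings gave the 12 genes furthest from C1q macrophages in each direction and the 10 furthest between DTR and WT members in each direction. Immunoglobulin and T cell receptor segments were left out of the rankings but stayed in the counts of genes past 2-fold. Between DTR and WT, a UMI in at least 10% of the members of the higher library was also required. The split by Folr2 was chosen after values were seen. Plasma cells and neutrophils were gated at 100 or more UMIs per 10000 of Jchain and Mzb1 and 300 or more of S100a8 and S100a9. Alternatives covered scaling, pseudocount, minimum UMIs, depth, marker rule, doublets and other-lineage cells. Some results are not reported here.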

Additional observations from a re-analysis of the deposited data

Results flagged for a closer look

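Outside the rule, 44 DTR cells (and 1 WT cell) had 2 or more of the markers without a UMI of Adgre1 or Csf1r. Their median depth was 2578 UMIs, 43 of 44 held Saa3, 20 of 44 held 2 or more C1q genes, and 8 and 2 of them fell in the plasma cell and neutrophil gates.

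For 8 genes the log2 difference between Gata6-type and C1q macrophages had one sign in WT and the other in DTR, past 2-fold in both, and this difference between the libraries was not tested. For Chil3 it was −2.07 in WT and 3.63 in DTR, and for Pf4 1.53 and −1.31. Granule genes had −5.10 and 4.39 for S100a9, −3.97 and 4.71 for S100a8, −3.39 and 4.74 for Camp, −1.45 and 4.25 for Lcn2 and −1.76 and 2.09 for Wfdc21. Cxcl10 had −2.72 and 2.26. Without the top cell of each group, the WT values were −0.96 for Chil3, −0.59 for S100a9, −0.51 for Camp, −0.71 for Lcn2, −0.17 for Wfdc21 and 0.60 for S100a8, and the DTR value was 0.78 for Cxcl10. In C1q macrophages 1 cell held 144 of 162 Chil3 UMIs in WT and 1 cell 97 of 138 in DTR, and neutrophil markers in WT summed to as much as 1204 UMIs per 10000 in a single cell. In all, 18 of 3784 genes were past 2-fold in opposite directions, 5 of them immunoglobulin genes.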

How the results depend on the processing

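No paired analysis was possible because each group was 1 library. The share of Gata6-type macrophages was 0.242% in WT and 2.23% in DTR with 3 or more markers, 1.71% in DTR with both Adgre1 and Csf1r, 1.86% in DTR when the rule was applied after thinning, 2.13% in DTR among Ptprc cells, 4.57% and 22.8% among cells with Adgre1 or Csf1r, and 4.99% in DTR outside the plasma cell and neutrophil gates, where the ratio was 11.4. In the other settings the ratio lay between 4.99 and 9.23.

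Counts of genes past 2-fold moved with the settings. Between DTR and WT members (211 higher, 188 lower) they were 107 lower with a pseudocount of 0.2, 435 and 477 with a minimum of 20 UMIs, 73 and 27 with 200, 321 and 86 with TMM factors, 125 lower with totals without immunoglobulin, mitochondrial and ribosomal genes, 88 and 36 after thinning to 2000 UMIs, and 96 and 114 without doublet calls and cells with markers of another lineage. Against C1q macrophages (57 higher, 82 lower) they were 49 lower with a pseudocount of 0.2, 86 and 151 with 20 UMIs, 19 and 22 with 200, 89 higher with TMM factors, 14 and 27 after thinning, 128 lower with 3 or more markers and 41 lower without doublet calls and cells of other lineages. Stricter minimums and thinning leave fewer genes to compare.

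Of single genes, 4565 values stayed close to the main value, 882 moved and 21 had the other sign. For shares, close means within the counting interval. For ratios it means no further from the main value than the margin of the interval on summed UMIs. After thinning, Ly6c2 was at 0.067 and Cnp at −0.82 against WT C1q macrophages. With 3 or more markers, the DTR minus WT difference was 0.019 for H2-Aa, 0.072 for H2-Eb1 and −0.26 for Cxcl10, and without counting Saa3 it was −0.035 for Cxcl10. Without doublet calls and cells of other lineages, the difference from WT C1q macrophages was 1.28 for Lcn2, 0.88 for Chil3, 0.49 for S100a9, 0.86 for S100a8 and 0.73 for Camp, and from DTR C1q macrophages −0.085 for Mki67 and −1.20 for S100a9. With the top cell left out, S100a8 was at 0.60 against WT C1q macrophages. In members without Folr2, a setting chosen after seeing the data as were the removal of plasma and neutrophil gates and the use of C1q macrophages with none of the markers, DTR minus WT was 0.89 for Axl, 1.01 for H2-Aa, 0.73 for H2-Ab1, 0.94 for H2-Eb1, 0.10 for Cd74, −0.62 for Cxcl10 and 1.02 for Rcn3. The cause was not tested in these settings.

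Comparisons that use the 35 WT members are limited by their number. In them a gene with no UMI can have a level of up to 0.0914, and a share of 0 cells allows up to 8.57%.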
